A study of Mus musculus with 34 samples.

Results

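The genes Gpnmb, Trem2, Clec7a, Lgals3, Cd5l, Cd36, Lpl, Fabp5, Atp6v0d2 and Mcoln3, known from phagocytes that take up lipid-rich debris, were followed in injured mouse spinal cord. They were taken from the probe annotation by gene symbol, which gave 18 probe sets, and the brightest of a gene's probe sets, on average over the 34 arrays, stood for it. They are 10 of the 18193 genes on the array, and all 10 were among the 11993 genes above log2 4 on at least 4 arrays, which were tested. The 10 genes were chosen by their late rise after injury in these same arrays, so their differences between injured and sham cord and between days are given as a description, without a test. The choice was made by the course after injury and not by genotype, and differences between genotypes were tested. The 10 genes and the other gene lists below were, however, chosen with earlier results of these data known.

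When myelin and cells break down in the cord, microglia and macrophages from the blood engulf the debris, take up its lipid, and pass the cargo to acidic lysosomes. Receptors at the cell surface recognise lipid and sugar ligands, fatty acid carriers and lipases handle the lipid, and the proton pump and cation channels set the inside of the lysosome. Several of these genes are known in mice as markers of microglia near plaques or damaged myelin and of foam cells, which are macrophages loaded with lipid. The arrays measure RNA only, so they hold no measure of lipid or of protein.

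KO animals lacked trkB.T1, the truncated receptor form encoded by Ntrk2 that has no kinase domain and binds brain-derived neurotrophic factor, and WT animals were wild type. Cord was taken after sham surgery that left it intact, or 1, 3 or 7 days after spinal cord injury. The groups were KO sham (4 arrays), WT sham (4), KO day 1 (4), WT day 1 (5), KO day 3 (5), WT day 3 (4), KO day 7 (4) and WT day 7 (4). The labels used here state neither strain, sex, age nor the site and force of injury. They leave unsaid whether arrays come from different animals, and p-values here cover the spread between these samples, which may be technical. In pieces of whole cord, more cells of a type and more RNA per cell cannot be told apart. Values are log2 signals, and those below 4 are called not well above background. A value after ± is the SD of a group or the standard error of a log2 difference.

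Some arrays stood apart. The array KO sham replicate 2 went against its label in the targeted gene: an Ntrk2 probe set read 8.59 there, against 2.83 on each of the other 16 KO arrays and 8.65 to 9.92 on the 17 WT arrays. The array WT day 3 replicate 2 was the lowest of its group for 9 of the 10 phagocyte genes, all but Atp6v0d2, and lay 0.95 below the group mean when averaged over the 10. It was also the lowest of its group in homeostatic microglia markers, at 6.68 against a group mean of 7.59 ± 0.61, and in general leukocyte markers, at 9.54 against a group mean of 9.92 ± 0.28. Values without these arrays are given beside the results that moved with them. Caudal Hox genes, whose level follows the position along the cord, averaged 8.76 ± 0.12 in KO sham and 7.09 ± 0.31 in WT sham arrays without overlap. Skeletal muscle markers ranged from 7.77 to 10.63 in KO sham and from 3.354 to 9.002 in WT sham arrays. The part of cord level and muscle in the values below was not tested beyond the figures given beside them.

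**Figure D1:**
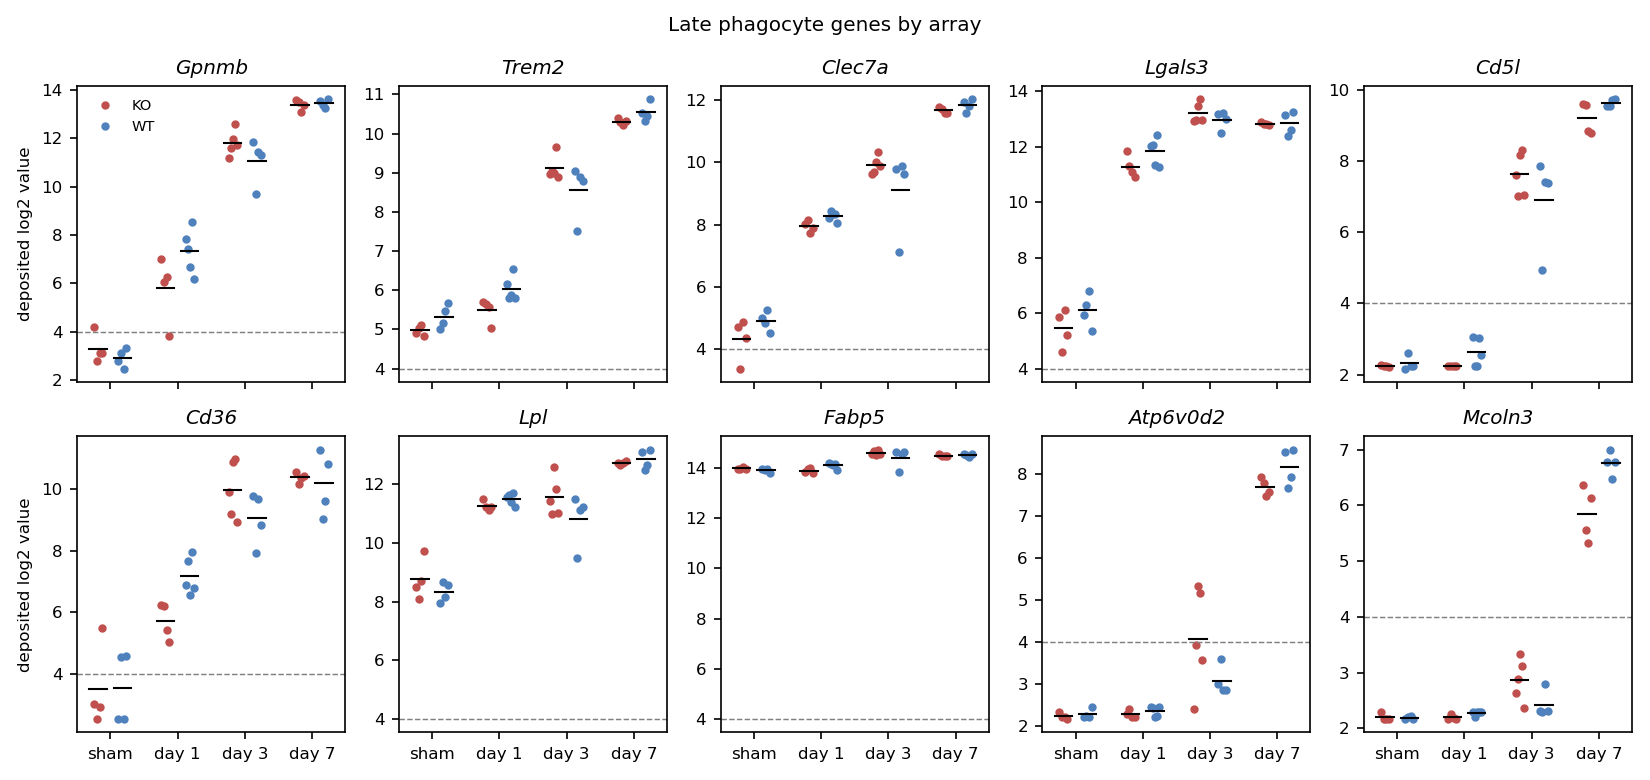
Deposited log2 value (vertical axis) of the 10 genes on each of 34 arrays by time (horizontal axis), with KO arrays on the left and WT arrays on the right at each time. Short black lines are group means and the dashed line is log2 4. Mcoln3 is above the dashed line only at day 7, while Lgals3 is above it on every array.

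Promoter sequences are shown for 5 of the genes because a window around the gene start holds a motif named below. Of the 10 genes, 7 had a window of 300 bases around a gene start in RefSeq (GRCm38.p6), and Clec7a had an additional window. The core GAGGAA, which reads TTCCTC on the other strand, is the core recognised by PU.1, a master factor of myeloid cells. It occurred in windows of 4 of the 7 genes, Cd5l, Clec7a, Mcoln3 and Trem2, and in 28.3% of all 32851 windows of that length. The AP-1 motif TGACTCA, which reads TGAGTCA on the other strand, occurred in the Gpnmb window and in 5.2% of all windows. The E-box CACGTG, recognised by the lysosomal factors TFEB and TFE3, and the motif CATGTG, which reads CACATG on the other strand, occurred in no window of these genes, against 7.15% and 14.2% of all windows. A match is a description of letters and not a binding site. Each stretch below runs from position -150 to position 30 around the gene start, in the direction of transcription, with the GAGGAA core or, for Gpnmb, the AP-1 motif in capitals.
Gpnmb, chr6:49036368-49036547, plus strand: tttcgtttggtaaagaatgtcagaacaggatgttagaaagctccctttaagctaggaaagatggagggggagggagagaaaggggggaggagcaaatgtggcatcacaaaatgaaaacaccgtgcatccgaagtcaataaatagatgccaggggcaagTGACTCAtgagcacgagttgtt
Cd5l, chr3:87357731-87357910, plus strand: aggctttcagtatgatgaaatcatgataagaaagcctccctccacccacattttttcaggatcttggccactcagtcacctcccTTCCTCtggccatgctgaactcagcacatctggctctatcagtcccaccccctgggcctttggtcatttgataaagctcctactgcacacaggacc
Clec7a, chr6:129472750-129472929, minus strand: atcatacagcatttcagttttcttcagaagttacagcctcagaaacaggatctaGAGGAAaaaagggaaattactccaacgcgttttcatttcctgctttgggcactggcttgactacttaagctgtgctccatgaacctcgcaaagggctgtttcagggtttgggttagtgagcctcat
Trem2, chr17:48346251-48346430, plus strand: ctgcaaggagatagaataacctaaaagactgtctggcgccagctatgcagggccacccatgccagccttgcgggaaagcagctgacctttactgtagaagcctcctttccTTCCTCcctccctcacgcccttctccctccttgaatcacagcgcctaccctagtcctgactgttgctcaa
Mcoln3, chr3:146121641-146121820, plus strand: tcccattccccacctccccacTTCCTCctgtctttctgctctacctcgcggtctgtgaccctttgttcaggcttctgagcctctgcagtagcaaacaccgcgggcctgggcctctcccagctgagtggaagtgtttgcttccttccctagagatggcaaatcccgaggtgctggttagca
The Gpnmb motif lay at bases 9 to 15 after the start. The GAGGAA core lay at positions -66 to -61 in Cd5l, -96 to -91 in Clec7a, -40 to -35 in Trem2 and -129 to -124 in Mcoln3. Atp6v0d2, Lpl and Fabp5 were not matched.

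Surface receptors came first. Gpnmb, a transmembrane glycoprotein of macrophages and lysosomes, was below background on 7 of 8 sham arrays and above log2 13 on all 8 day 7 arrays. In KO cord Gpnmb read 4.17, 2.77, 3.11 and 3.11 in sham, 6.99, 6.06, 6.25 and 3.84 on day 1, 11.20, 11.59, 11.96, 12.58 and 11.74 on day 3, and 13.58, 13.51, 13.08 and 13.39 on day 7. In WT cord Gpnmb read 2.77, 3.12, 2.47 and 3.34 in sham, 7.83, 7.42, 6.66, 8.53 and 6.20 on day 1, 11.83, 9.69, 11.42 and 11.32 on day 3, and 13.52, 13.36, 13.27 and 13.60 on day 7. On the probe set used, each day lay above the one before without overlap in both genotypes, except that 1 KO day 1 array lay within the KO sham range. Day 7 was at least 651-fold above sham in KO cord and at least 693-fold above sham in WT cord, with arrays below log2 4 set to 4. A further Gpnmb probe set was dimmer, above log2 4 on 15 arrays. At sham and days 1, 3 and 7 it averaged 2.53, 2.53, 5.30 and 4.63 in KO cord. The WT means were 2.35, 2.62, 4.31 and 5.12. Its day 7 minus sham was 2.10 in KO cord and 2.78 in WT cord, and its KO mean was lower at day 7 than at day 3.

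Trem2, a receptor for lipids and lipoproteins that signals through the adaptor Tyrobp, was near its sham level at day 1 and high from day 3. In KO cord Trem2 read 4.91, 5.04, 5.10 and 4.84 in sham, 5.71, 5.65, 5.57 and 5.03 on day 1, 8.96, 9.04, 8.99, 9.65 and 8.90 on day 3, and 10.39, 10.30, 10.21 and 10.33 on day 7. In WT cord Trem2 read 5.01, 5.16, 5.47 and 5.67 in sham, 6.15, 5.80, 5.87, 6.53 and 5.80 on day 1, 9.03, 7.52, 8.88 and 8.78 on day 3, and 10.52, 10.33, 10.45 and 10.87 on day 7. The day 3 and day 7 groups did not overlap each other or the earlier groups. The log2 difference at day 7 was 5.33 ± 0.23 in KO cord (40.3-fold) and 5.21 ± 0.23 in WT cord (37.1-fold). The KO day 1 and sham arrays overlapped, and the WT day 1 and sham arrays did not. A further Trem2 probe set stayed below log2 4 on every array, so Trem2 rests on 1 probe set.

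Clec7a encodes dectin-1, a receptor for beta-glucan that signals through Syk. In KO cord Clec7a averaged 4.33 ± 0.68 in sham, 7.95 ± 0.18 on day 1, 9.91 ± 0.29 on day 3 and 11.67 ± 0.09 on day 7. In WT cord Clec7a averaged 4.90 ± 0.30, 8.29 ± 0.15, 9.11 ± 1.32 and 11.84 ± 0.19 at the same times. Unlike Trem2, it was already at least 11.02-fold above sham in KO cord and 10.5-fold above sham in WT cord at day 1. The wide WT day 3 spread came with replicate 2, at 7.13 against 9.79, 9.89 and 9.62 on the others.

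Lgals3 encodes galectin-3, a lectin that binds galactose-bearing sugars and is found at damaged lysosomes. In KO cord Lgals3 averaged 5.45 ± 0.69 in sham, 11.29 ± 0.41 on day 1, 13.22 ± 0.35 on day 3 and 12.83 ± 0.05 on day 7. In WT cord Lgals3 averaged 6.10 ± 0.61, 11.84 ± 0.49, 12.98 ± 0.33 and 12.85 ± 0.42 at the same times. It was 57.1-fold above sham in KO cord and 53.4-fold above sham in WT cord at day 1, the largest day 1 fold of the 10 genes in both genotypes. Its day 7 level was not higher than day 3: the log2 difference was -0.39 ± 0.29 in KO cord and -0.13 ± 0.31 in WT cord, with the KO day 7 arrays all below the KO day 3 arrays.

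Cd5l, a protein that macrophages secrete and that is known to limit their death and bind lipid, appeared between day 1 and day 3. It was below log2 4 on all 17 sham and day 1 arrays. In KO cord Cd5l read 7.60, 7.02, 8.17, 8.32 and 7.05 on day 3 and 9.60, 9.58, 8.84 and 8.78 on day 7. In WT cord Cd5l read 7.87, 4.95, 7.42 and 7.39 on day 3 and 9.54, 9.53, 9.70 and 9.73 on day 7. Day 7 lay above day 3 without overlap in both genotypes, 2.97-fold in KO cord and 6.59-fold in WT cord. Without WT day 3 replicate 2, the WT day 3 arrays averaged 7.56 ± 0.27.

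The lipid handlers were led in range by Cd36, a scavenger receptor that takes up oxidised lipoprotein and fatty acids. In KO cord Cd36 read 3.05, 2.56, 2.95 and 5.49 in sham, 6.23, 6.21, 5.45 and 5.05 on day 1, 9.88, 9.17, 10.87, 10.94 and 8.93 on day 3, and 10.55, 10.14, 10.33 and 10.42 on day 7. In WT cord Cd36 read 2.56, 4.55, 2.56 and 4.59 in sham, 6.89, 7.67, 6.56, 7.95 and 6.78 on day 1, 9.75, 7.91, 9.68 and 8.81 on day 3, and 11.25, 9.02, 9.61 and 10.81 on day 7. The day 3 and day 7 groups overlapped in both genotypes. The day 1 arrays overlapped sham in KO cord and not in WT cord. The sham arrays with the highest Cd36 were KO replicate 4 and WT replicates 2 and 4, which also had the highest skeletal muscle markers of their groups, at 10.63 on the KO array and 9.002 and 8.687 on the WT arrays. Cd36 is known in muscle, endothelium and fat as well as in macrophages, and the part of those tissues in its values was not tested.

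Lpl, the lipase that frees fatty acids from lipoprotein triglyceride, rested on a sham signal well above background. In KO cord Lpl averaged 8.76 ± 0.70 in sham, 11.27 ± 0.15 on day 1, 11.58 ± 0.66 on day 3 and 12.73 ± 0.06 on day 7. In WT cord Lpl averaged 8.33 ± 0.34, 11.50 ± 0.20, 10.83 ± 0.90 and 12.85 ± 0.33 at the same times. Its course had a plateau: the day 3 and day 1 arrays overlapped in both genotypes, with log2 differences of 0.31 ± 0.32 in KO cord and -0.67 ± 0.32 in WT cord. Day 7 then lay 2.22-fold above day 3 in KO cord and 4.06-fold above it in WT cord, without overlap. Both WT figures moved with WT day 3 replicate 2, which read 9.50. Without that array the WT day 3 arrays averaged 11.27 ± 0.19, nearer to WT day 1 and to WT day 7. The highest Lpl values among KO sham arrays (9.74, replicate 4) and among KO day 3 arrays (12.58, replicate 3) stood on the arrays with the highest muscle markers of those groups, 10.63 and 13.47.

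Fabp5, which carries fatty acids inside cells, had the smallest range, from 13.80 to 14.73 over all arrays. In KO cord Fabp5 averaged 13.99 ± 0.04 in sham, 13.90 ± 0.09 on day 1, 14.61 ± 0.09 on day 3 and 14.50 ± 0.03 on day 7. In WT cord Fabp5 averaged 13.92 ± 0.08, 14.12 ± 0.11, 14.42 ± 0.40 and 14.52 ± 0.04 at the same times. Day 7 lay above sham without overlap, 1.42-fold in KO cord and 1.52-fold in WT cord, but not above day 3 in either genotype beyond the spread. Its signal is near the top of the deposited range of 2.17 to 15.9, and its other probe set, which is lower, differed more between day 7 and sham, by 0.85 in KO cord and 1.02 in WT cord on the log2 scale.

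The lysosomal genes, Atp6v0d2 and Mcoln3, were the last to pass log2 4. They were also the dimmest of the 10 on average over the arrays, at 3.98 and 3.30. A later rise and a weaker signal cannot be told apart here. In both genotypes their day 3 arrays already lay above sham without overlap, mostly below log2 4. Atp6v0d2 encodes the d2 subunit of the membrane part of the vacuolar proton pump and is known from osteoclasts and macrophages. It was below log2 4 on all 17 sham and day 1 arrays. In KO cord Atp6v0d2 read 2.40, 3.94, 5.33, 5.17 and 3.58 on day 3 and 7.93, 7.80, 7.49 and 7.58 on day 7. In WT cord Atp6v0d2 read 3.01, 3.61, 2.86 and 2.86 on day 3 and 8.53, 7.68, 7.93 and 8.58 on day 7. The day 3 arrays were above background on only 2 of 9 arrays, both KO, and day 7 lay at least 9.18-fold above day 3 in KO cord and at least 18.2-fold above it in WT cord. A further Atp6v0d2 probe set had a like course, with day 7 minus sham of 5.51 in KO cord and 5.69 in WT cord on the log2 scale.

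Mcoln3 encodes TRPML3, a cation channel of endosomes and lysosomes, and was above log2 4 on the 8 day 7 arrays alone. At day 7 it read 6.36, 5.56, 5.33 and 6.12 in KO cord and 6.77, 7.00, 6.48 and 6.77 in WT cord. All 26 other arrays were between 2.17 and 3.34. Every KO array at day 7 was below every WT array. Day 7 lay at least 3.59-fold above sham in KO cord and at least 6.75-fold above it in WT cord. A further Mcoln3 probe set stayed at or next to the floor, with a highest value of 2.21, so Mcoln3 rests on 1 probe set.

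**Figure D2:**
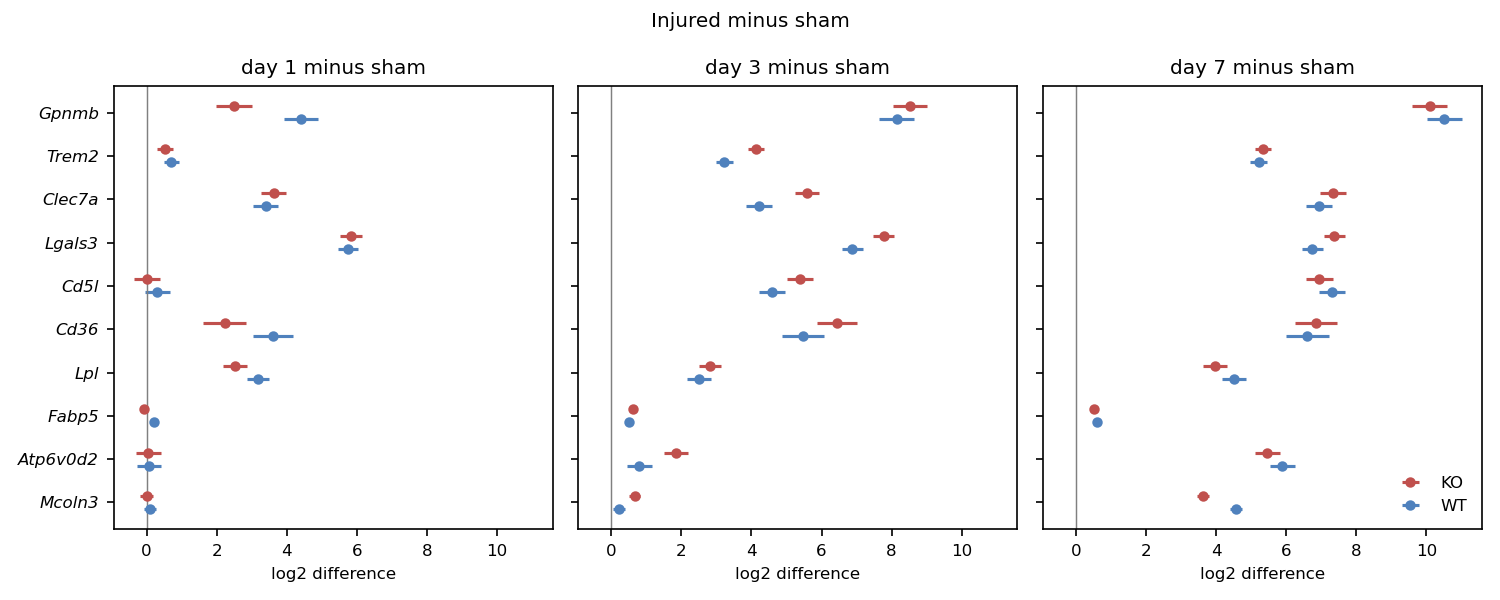
Log2 difference between injured and sham cord (horizontal axis) of the 10 genes (rows) at days 1, 3 and 7, with KO drawn above WT in each row. Bars are standard errors. Lgals3, Clec7a, Lpl, Gpnmb and Cd36 are far above 0 at day 1, Cd5l and Trem2 from day 3, and Atp6v0d2 and Mcoln3 at day 7.

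The genes differed in when they came up, and the counts follow from how they were chosen. At day 1, 5 of the 10 were at least 2-fold above sham in KO cord and 5 in WT cord, where 7.09% and 8.46% of all tested genes were. At day 3 these were 8 in KO cord and 7 in WT cord, against 12.7% and 12.2% of all genes. With values below log2 4 set to 4 there were 7 in each genotype, since Atp6v0d2 in KO cord was only bounded at 1.41-fold or more. At day 7 there were 9 in each genotype, all but Fabp5, against 9.9% of all genes in KO cord and 10.9% in WT cord. The median log2 difference of the 10 at day 7 was 6.15 in KO cord and 6.25 in WT cord, or 5.27 and 5.42 with values below log2 4 set to 4, against -0.06 over all genes in each genotype.

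Between days the same genes split. From day 1 to day 3, 7 were at least 2-fold higher in KO cord and 5 in WT cord, against 8.19% and 4.33% of all genes. With values set to 4 the KO count was 6, without Atp6v0d2, and without WT day 3 replicate 2 the WT count was 6, with Clec7a added. From day 3 to day 7, 7 were at least 2-fold higher in KO cord and 8 in WT cord, against 1.92% and 2.11% of all genes. The genes below that limit in the later step were Cd36, Lgals3 and Fabp5 in KO cord and Lgals3 and Fabp5 in WT cord. Without WT day 3 replicate 2, Cd36 was below it in WT cord too, and the count was 7 in each genotype. The KO and WT comparisons share no arrays. Without KO sham replicate 2 the KO day 7 median was 5.99, and without WT day 3 replicate 2 the WT day 3 median was 4.22, against 3.72 with it.

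The genotype comparison asked whether loss of trkB.T1 was accompanied by other levels of these genes. Mcoln3 at day 7 was the 1 gene of the 10 that passed the test at any time: it averaged 5.84 ± 0.48 in KO cord and 6.76 ± 0.21 in WT cord (n = 4 each), 1.88-fold lower in KO cord. The log2 difference was -0.91 ± 0.17, with an adjusted p of 0.0464 by limma over all genes. All 4 KO arrays were lower than the 4 WT arrays, whereas 8.73% of all genes had no overlap between genotypes at day 7 and 0.0334% passed the test. The call is at the edge of the threshold. The standard error pools all groups, in which the Mcoln3 SD was 0.03 to 0.07 in the sham groups and 0.48 in KO day 7, and with the day 7 groups alone the adjusted p was 0.152. The value kept its direction in each of the 34 fits that left out 1 array, from -1.08 to -0.74, and stayed below an adjusted p of 0.05 in 11 of them. The adjusted p by limma was 0.0397 without KO sham replicate 2, 0.0525 without WT day 3 replicate 2 and 0.0488 without both.

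Mcoln3 also passed as a genotype difference in the change from day 3 to day 7, at -1.36 ± 0.24 (adjusted p = 0.0431 by limma), where 0.00834% of all genes passed. Its day 3 values were below background on all 9 arrays. With values below log2 4 set to 4 the difference was -0.91 and the adjusted p 0.0674, and without WT day 3 replicate 2 the difference was -1.31 with an adjusted p of 0.169. It passed in 7 of the 34 fits that left out 1 array and not without KO sham replicate 2 (adjusted p = 0.0639 by limma). No other gene of the 10 passed in this comparison. An unadjusted p under 0.05 was found for 4 of the 10 and for 967 of all 11993 genes. The genotype difference in the whole injury response at day 7 was -0.92 ± 0.24 for Mcoln3 and did not pass (adjusted p = 0.537 by limma). There 0.00834% of all genes passed. An unadjusted p under 0.05 was found for 1 of the 10 and for 395 of all 11993 genes.

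At day 1 all 10 genes were lower in KO cord, by 0.08 to 1.54 on the log2 scale, with a median of -0.36 against 0.02 over all genes, and 3 of them, Cd5l, Atp6v0d2 and Mcoln3, were below background in both genotypes. None passed the limma test, where 0.859% of all genes did. An unadjusted p under 0.05 was found for 4 of the 10 and for 1163 of all 11993 genes. The largest difference was that of Gpnmb, which averaged 5.79 ± 1.36 in KO cord (n = 4) and 7.33 ± 0.93 in WT cord (n = 5), -1.54 ± 0.48, with a 95% interval of -2.52 to -0.56 and an adjusted p of 0.166 by limma. Without KO day 1 replicate 4, at 3.84 and below background, the Gpnmb difference was -0.89 and that of Cd36 was -1.20. The arrays of Cd36 and Trem2 did not overlap, as was so for 5.01% of all genes. Cd36 averaged 5.74 ± 0.58 in KO cord and 7.17 ± 0.61 in WT cord, and Trem2 averaged 5.49 ± 0.31 in KO cord and 6.03 ± 0.32 in WT cord. The 10 genes share arrays and cells, so their common direction is not 10 independent observations. The general leukocyte markers were 8.64 ± 0.23 in KO cord and 8.82 ± 0.16 in WT cord at day 1, and the homeostatic microglia markers 6.01 ± 0.18 and 6.41 ± 0.13 in KO and WT cord.

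At day 3 the direction was the opposite. All 10 genes were higher in KO cord, with a median of 0.74 against -0.00 over all genes. Of these, Mcoln3 was below background on all 9 arrays and Atp6v0d2 on 7 of 9, so their differences are not measured levels. None passed by limma, where 0.0334% of all genes did. An unadjusted p under 0.05 was found for 5 of the 10 and for 1382 of all 11993 genes. No gene of the 10 had KO and WT arrays apart, as 0.792% of all genes did. Without WT day 3 replicate 2 the median was 0.25 and 9 of the 10 were above 0, with 2 at an unadjusted p under 0.05, Atp6v0d2 and Mcoln3. In other alternatives, described below, the lowest difference was -0.28 for Cd5l, -0.11 for Lgals3 and -0.06 for Trem2. It was -0.05 for Lpl, -0.02 for Gpnmb and -0.01 for Fabp5. With array weights 1 of the 10 had an unadjusted p under 0.05 by limma, and with only the groups compared 0 had. The general leukocyte markers were 10.36 ± 0.32 in KO cord and 9.92 ± 0.28 in WT cord at day 3, the infiltrating monocyte and macrophage markers 10.38 ± 0.70 in KO cord and 9.79 ± 0.31 in WT cord, and the homeostatic microglia markers 7.93 ± 0.23 in KO cord and 7.59 ± 0.61 in WT cord. Their part in the differences was not tested. In sham cord none of the 10 genes passed or was apart, with 0.0667% of all genes passing and 5.07% apart. Lgals3 (-0.64 ± 0.31) was the 1 of the 10 with an unadjusted p under 0.05, as 492 of all 11993 genes had. Without KO sham replicate 2 the Lgals3 difference was -0.36 and 0 of the 10 had such a p.

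**Figure D3:**
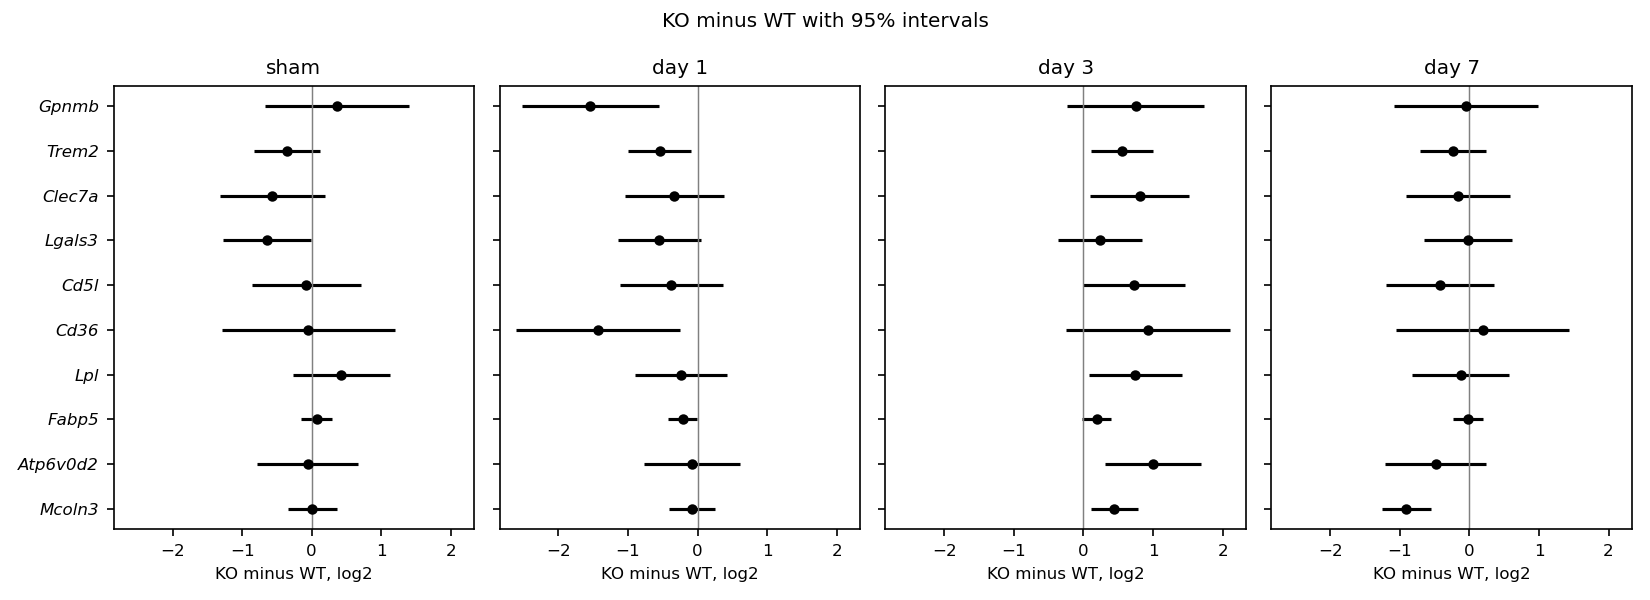
KO minus WT log2 difference (horizontal axis) of the 10 genes (rows) in sham cord and at days 1, 3 and 7, with 95% intervals. All 10 points are left of 0 at day 1 and right of 0 at day 3, and Mcoln3 stands apart from 0 at day 7.

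The day 1 and day 3 differences share no arrays, and the change from day 1 to day 3 is built from both of them. The genotype difference in that change was above 0 for all 10 genes, from 0.40 to 2.35 with a median of 1.09, against -0.02 over all genes. Of the 10 genes, 9 had an unadjusted p under 0.05, as did 1726 of all 11993 genes. None of the 10 passed by limma, where 0.859% of all genes did. The nearest were Trem2 (1.09 ± 0.31, adjusted p = 0.0947 by limma) and Gpnmb (2.29 ± 0.68, adjusted p = 0.107). Without WT day 3 replicate 2 the median was 0.58, with 5 genes at an unadjusted p under 0.05. In the injury response itself none of the 10 passed at day 1, where 0.142% of all genes did. There 1 of the 10 (Gpnmb, -1.91 ± 0.70) had an unadjusted p under 0.05, as did 760 of all 11993 genes. None passed at day 3 either, where 0% of all genes did (839 at an unadjusted p under 0.05). There all 10 genes were above 0, with 4 at an unadjusted p under 0.05. Without WT day 3 replicate 2 these were 7 above 0 and 3 at such a p, and without KO sham replicate 2 the number at such a p was 2.

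**Figure D4:**
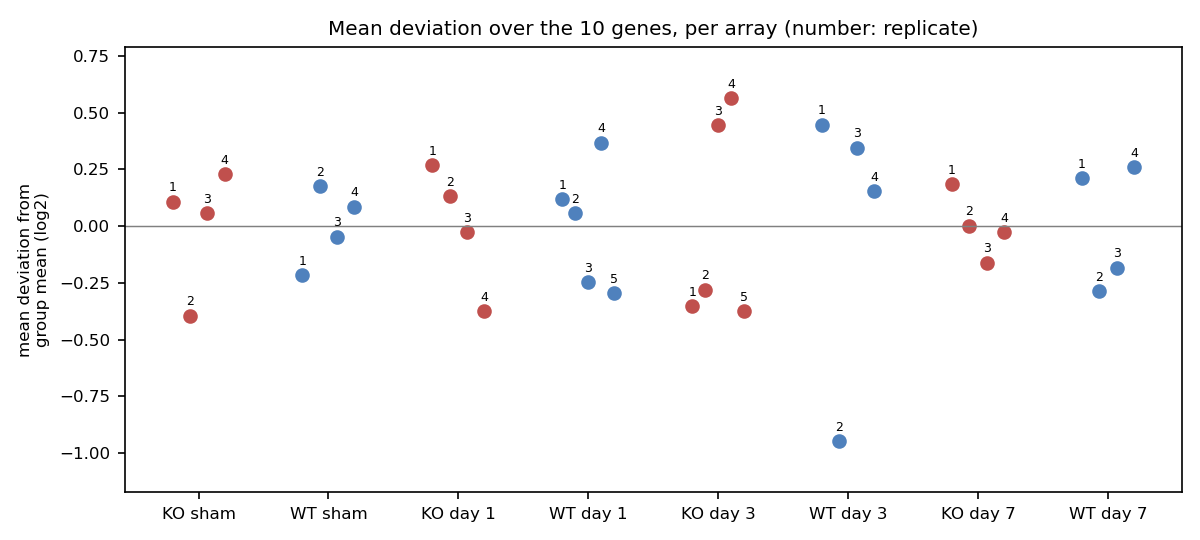
Mean over the 10 genes of each array's deviation from its group mean (vertical axis, log2), by group, with KO left of WT at each time and the replicate number above each point. WT day 3 replicate 2 lies lowest, at -0.95.

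Most measured partners of the receptors in the Trem2 and Clec7a pathways rose. At day 7, 11 of 12 tested adaptors and kinases rose against sham in KO cord and 11 in WT cord, and none fell, with medians of 3.06 and 3.26. Over all genes, 23.5% rose and 31% fell in KO cord, and 25.8% rose and 33.3% fell in WT cord. Tyrobp, the adaptor through which Trem2 signals, rose 23.5-fold in KO cord and 20.04-fold in WT cord. Fcer1g, the related adaptor, rose 20.2-fold and 18.1-fold in KO and WT cord, Ptpn6, an inhibitory phosphatase, 18.3-fold and 16.1-fold, and Blnk, a linker below Syk, at least 20.1-fold and at least 22.8-fold. Between day 3 and day 7 fewer passed: 2 of 12 rose in KO cord and 5 in WT cord, and none fell, with medians of -0.18 and 0.48, while 19.3% of all genes rose and 16.6% fell in KO cord, and 11% rose and 12% fell in WT cord.

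Of 23 tested genes of lipid uptake, storage and efflux, 15 rose and 1 fell at day 7 in KO cord, and 16 rose and 1 fell in WT cord, with medians of 1.01 and 1.10. Cd68, a lysosomal glycoprotein of phagocytes, rose at least 123-fold in KO cord and 98.6-fold in WT cord. Msr1, a scavenger receptor for modified lipoprotein, rose at least 34.5-fold and at least 33.5-fold in KO and WT cord, and then fell between day 3 and day 7 by 0.99 ± 0.28 in KO cord (adjusted p = 0.00775 by limma) and by 0.81 ± 0.29 in WT cord (adjusted p = 0.0456). Ch25h, which makes 25-hydroxycholesterol, rose at least 40.3-fold and at least 31.6-fold, and Apoc2, the apolipoprotein that activates Lpl, at least 22.2-fold and at least 24.8-fold, in KO and WT cord. Of 8 lipid-sensing and lysosomal transcription factors, 3 rose and 2 fell in KO cord and 4 rose and 2 fell in WT cord. Srebf1, a factor of fatty acid synthesis, rose by 0.82 ± 0.14 in KO cord and by 1.17 ± 0.14 in WT cord.

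The proton pump was measured beyond Atp6v0d2. Of 18 other proton pump subunits and accessory proteins, 4 rose and 8 fell at day 7 in KO cord, and 4 rose and 9 fell in WT cord, with medians of -0.14 and -0.15. Tcirg1, the a3 subunit known from osteoclasts, rose 4.16-fold in KO cord and 4.39-fold in WT cord, and Atp6v0e rose 2.85-fold and 2.76-fold. Atp6v1g2, a subunit known from neurons, fell by 0.92 ± 0.22 in KO cord and by 1.00 ± 0.22 in WT cord. Of 8 lysosomal channels and membrane proteins other than Mcoln3, 5 rose and none fell in each genotype. Lamp2 rose 2.70-fold in KO cord and 2.96-fold in WT cord, and the channel Mcoln1, a relative of Mcoln3 named after its values were seen, read -0.12 in KO cord and -0.07 in WT cord on the log2 scale and did not pass.

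Among relatives of the 10 genes, 9 of 13 Trem, dectin and scavenger genes rose at day 7 in KO cord and 11 in WT cord, and none fell. Against day 3, 2 of these rose and 7 fell in KO cord, and 2 rose and 3 fell in WT cord. Clec4d, another C-type lectin receptor, fell by 2.71 ± 0.33 in KO cord and by 1.96 ± 0.35 in WT cord from day 3 to day 7, while Clec7a was higher at day 7 than at day 3 in both. Of 8 galectin and fatty-acid-binding relatives, 5 rose in KO cord and 7 in WT cord at day 7. Lgals1, another galectin, rose 4.76-fold and 5.19-fold over sham in KO and WT cord and fell from day 3 to day 7 by 1.00 ± 0.13 in KO cord and by 0.85 ± 0.14 in WT cord.

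Other genes of disease-associated microglia rose in 20 of 22 cases at day 7 in both genotypes. Cst7, a protease inhibitor, rose at least 39.8-fold in KO cord and at least 53.8-fold in WT cord, and its day 7 level passed day 3 by 2.49 ± 0.32 in KO cord and by 3.66 ± 0.34 in WT cord on the log2 scale. Lyz2, lysozyme, rose 61.1-fold in KO cord and 43.6-fold in WT cord. Homeostatic microglia markers rose at day 7 in 8 of 10 cases in KO cord and 7 in WT cord, with Fcrls at 23.1-fold and 21.0-fold and Cx3cr1 at 6.39-fold in each.

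Markers of cells from the blood had another course. Infiltrating monocyte and macrophage markers rose at day 7 in 10 of 12 cases in KO cord and 11 in WT cord, but from day 3 to day 7, 7 of 12 fell in KO cord and 5 in WT cord, with 0 and 1 rising. Arg1, the enzyme arginase 1, had a log2 difference in that step of -3.28 ± 0.42 in KO cord and -4.17 ± 0.44 in WT cord, while Ms4a7, a membrane protein of macrophages, rose by 2.48 ± 0.40 in WT cord and read 0.66 ± 0.38 in KO cord without passing. All 12 general leukocyte markers rose at day 7 in each genotype, with medians of 3.64 in KO cord and 3.43 in WT cord. From day 3 to day 7 the leukocyte medians were 0.02 in KO cord and 0.59 in WT cord, against 1.38 and 2.20 for the 10 genes. The 10 were chosen for a late rise, so their higher medians follow from that choice. Without WT day 3 replicate 2, the lowest of its group in leukocyte markers, the WT median of the 10 was 1.78. The leukocyte median was not examined without it. The part of changing cell numbers in the values of the 10 genes was not tested.

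**Figure D5:**
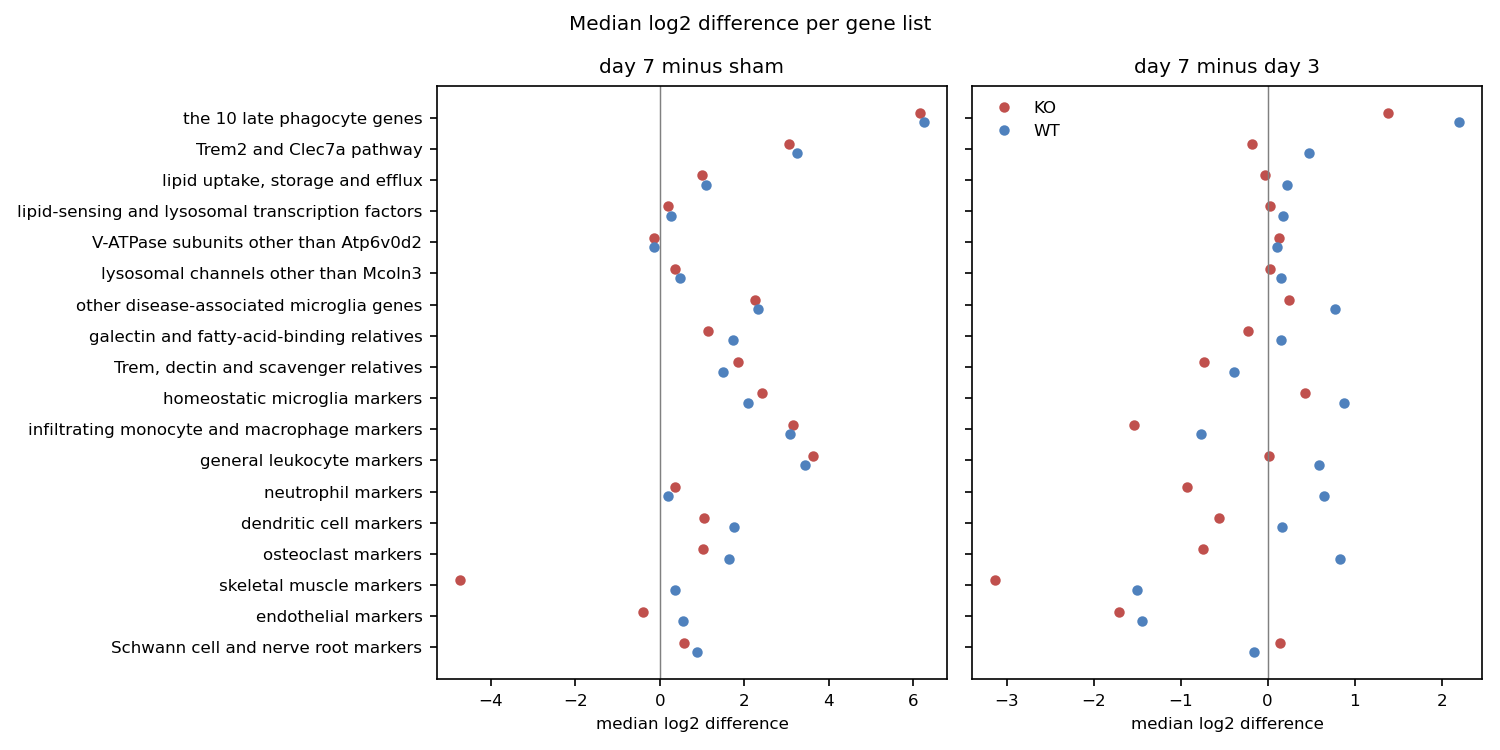
Median log2 difference (horizontal axis) of the 10 genes and of other gene lists (rows), for day 7 minus sham and day 7 minus day 3, with KO drawn above WT in each row. The 10 genes are furthest right in both panels, as their choice implies.

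Markers of other tissues were set beside the 10 genes. All 5 melanocyte markers and 5 of 7 adipocyte markers were below log2 4 on every array. The tested adipocyte marker was Fabp4, which macrophages also express and which rose 13.1-fold in KO cord and at least 11.4-fold in WT cord at day 7. Of 4 tested osteoclast markers, 2 rose in KO cord and 3 in WT cord, and 3 of the 8 on the array were below log2 4 throughout. Dendritic cell markers rose in 4 of 6 cases and fell in 1 in each genotype, and neutrophil markers rose in 2 of 9. Of 11 skeletal muscle markers, 10 fell at day 7 in KO cord and none passed the test in WT cord, where the arrays differed widely. Their mean level was 4.76 ± 0.56 in KO day 7, 9.38 ± 1.18 in KO sham, 6.39 ± 2.56 in WT day 7 and 6.19 ± 3.07 in WT sham arrays. Endothelial markers fell from day 3 to day 7 in 7 of 9 cases in KO cord and 8 in WT cord. Schwann cell markers rose in 2 of 6 cases in KO cord and 3 in WT cord at day 7, and cord tissue markers rose in 2 and fell in 7 of 10 in each.

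Some listed genes passed between genotypes where the 10 did not. At day 1, Fcrls (-0.93 ± 0.21), Lgals1 (-0.59 ± 0.13) and Hif1a (-0.27 ± 0.06) were lower in KO cord. In the genotype difference of the change from day 1 to day 3, Ms4a7 (2.65 ± 0.53), Blnk (1.57 ± 0.37), Gpr34 (1.49 ± 0.36), Fcrls (1.31 ± 0.29), Plcg2 (0.97 ± 0.23), Lgals1 (0.78 ± 0.19) and Hif1a (0.39 ± 0.09) passed, all above 0. These calls include WT day 3 replicate 2, the lowest of its group in microglia and leukocyte markers. Without that array 51 of all genes passed in this comparison, against 103 with it, and the listed genes were not examined without it. Blnk and Plcg2 act below Syk, and Fcrls and Gpr34 are microglial surface proteins. In sham cord Egr2 and 4 caudal Hox genes, Hoxa10, Hoxc10, Hoxd9 and Hoxd10, were higher in KO cord, and Hoxa10 also passed in the genotype difference of the day 1 response (-2.50 ± 0.48).

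The genes most like the mean of the 10, each standardised over the 34 arrays, were Tyrobp (Pearson r = 0.99), Irf8 (0.98), Abca1 (0.98), Naglu (0.98), C1qa (0.98), Mpeg1 (0.98), Ctsb (0.98), C1qc (0.98), B2m (0.98), Ctsd (0.98), Ly86 (0.98) and Arhgap25 (0.98). Those most like Gpnmb alone were Mpeg1 (0.99), Ctsb (0.99), Pon3 (0.99), Gusb (0.99), Ctsd (0.99) and Ctsz (0.99). These correlations run over arrays that share the injury course and are given as a description. Among the 10, Gpnmb lay closest to the mean of the other 9 (r = 0.98), followed by Clec7a and Trem2, and Mcoln3 (0.76) and Lgals3 (0.80) lay furthest. Mcoln3 was above background at day 7 alone. Lgals3 was above it on every array, as were Trem2, Lpl and Fabp5.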

How the data were processed

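Per the labels' protocols, cord RNA was extracted with Trizol and hybridised as biotin-labelled cRNA to 34 Affymetrix arrays. Log2 signals as deposited were used without further normalisation. The submitters' processing notes name GCRMA, without a version. GCRMA shrinks dim signals to a floor near 2.17, so folds against dim groups are lower bounds. Array medians were 4.138 to 4.391, no pair of arrays had equal values, and the number of arrays limits the precision. Of 45101 probe sets, 34945 had 1 gene symbol, 932 several and 9160 none; the probe set with the highest mean stood for each of 18193 genes. The 11993 genes whose signal exceeded log2 4 on 4 or more arrays were fitted with limma 3.58.1 in R 4.3.3 over the 8 groups, with Benjamini-Hochberg adjustment over all genes and a threshold of 0.05. The code was tested on simulated data.

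The 10 genes and the gene lists were chosen with earlier results of these data known. All 10 are named; from each other list, up to 4 genes with the largest WT day 7 minus sham difference and those passing a genotype test; by likeness, the 12 closest to the mean of the 10 and the 6 closest to Gpnmb. Same-numbered arrays of different groups did not deviate together throughout: over 113 pairs, r ran from -0.51 to 0.56 (median 0.00) and exceeded 0.1 in 26. Some pairs of groups did so in part. KO day 3 and WT day 7 had r of -0.23, 0.49, 0.56 and 0.44 for replicates 1 to 4, and KO day 1 and WT day 1 had 0.25, 0.31, 0.35 and -0.13. The numbers were not taken as pairs in the reported fit. Alternatives changed the filter, floor, probe set, arrays in the fit, weights, variance trend, replicate block and a caudal Hox covariate, and left out each array; leaving out both doubted arrays, and the counts of 2-fold higher genes with values set to 4 or without doubted arrays, were chosen after seeing the data.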

Additional observations from a re-analysis of the deposited data

Results flagged for a closer look

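In 7 of 64 sets examined, each of 1 gene in 1 group, 1 array lay far from the others of its group. Chance gives about 1 in 20 such sets, and the sets share arrays. WT day 3 replicate 2 was the low array in 4 of these: Clec7a read 7.128 against 9.624 to 9.887 on the others, Cd5l 4.95 against 7.389 to 7.874, Trem2 7.522 against 8.785 to 9.035, and Fabp5 13.83 against 14.58 to 14.64. Cd36 read 5.485 on KO sham replicate 4, against 2.56 to 3.053 on the other KO sham arrays. Trem2 read 9.654 on KO day 3 replicate 4, against 8.901 to 9.041. Fabp5 read 14.04 on KO sham replicate 3, against 13.96 to 13.98.

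The fitted genotype difference of Mcoln3 in the change from day 3 to day 7 was -1.3558 on the log2 scale (KO change minus WT change). Every day 3 array was below background, and with values set to 4 the difference was -0.9102 and did not pass (adjusted p = 0.0674 by limma).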

How the results depend on the processing

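No called value of the 10 genes or of their medians reversed its sign. Differences that did not pass changed sign in places, as for KO minus WT at day 3. The other listed genes were not run under the alternatives. Of the 10 genes, the number passing for KO minus WT at day 1 was 2 with array weights (Gpnmb and Fabp5) and 1 without both doubted arrays (Fabp5), against 0. At day 7 it was 0 with the second probe set, only the groups compared, a variance trend or the replicate block (Mcoln3 adjusted p = 0.099), against 1. With caudal Hox as a covariate 1 passed in the day 1 response (Gpnmb) and 1 in the day 7 response (Mcoln3). Of all 11993 genes, 1561 and 495 then passed in these responses, against 17 and 1 as reported. In the change from day 1 to day 3 the replicate block gave 2 (Gpnmb and Trem2), against 0. In the change from day 3 to day 7 it was 0 with no filter, values set to 4, the second probe set, only the groups compared, array weights, a trend, the replicate block or without both doubted arrays, against 1. Leaving out 1 array gave 0 to 1 for KO minus WT at days 1, 3 and 7 and for both changes between days, 0 for the injury responses, and a WT day 3 median of 3.5266 to 4.2227. The cause of these differences was not tested.

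The median of the 10 against sham, with the second probe set, was 0.005, 3.1408 and 5.0909 in KO cord on days 1, 3 and 7 and 0.3378, 2.5175 and 5.3543 in WT cord. As reported it was 1.37, 4.76 and 6.15 in KO cord and 1.94, 3.72 and 6.25 in WT cord. For day 7 minus day 3 the median with the second probe set was 0.2046 in KO and 0.9715 in WT cord, against 1.38 and 2.20 as reported. The second probe sets of Mcoln3 and Trem2 were above log2 4 on 0 arrays. The 3 genes with 1 probe set kept it. With values set to 4 the median against sham was 3.8834 (day 3) and 5.2666 (day 7) in KO cord and 3.0679 and 5.42 in WT cord. At WT day 3 it was 4.2555 with array weights and 4.2227 without both doubted arrays. Over all genes, KO minus WT calls ranged from 1 to 1413 in sham (8 as reported, 1413 with the Hox covariate), were 310 with array weights at day 1 (103 as reported) and 233 at day 7 (4 as reported), and 342 with the replicate block in the change from day 1 to day 3 (103 as reported).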
